A study of Mus musculus with 203 samples.

Results

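The peroxisome proliferator-activated receptors (PPARs), their retinoid X receptor (RXR) partners and 6 lipid genes they are known to control were followed through IL4 treatment and KDM1A knockdown in RAW cells. The 10 genes were chosen by name: the receptors Pparg, Ppard, Rxra and Rxrb, and the lipid genes Cd36, Fabp4, Fabp5, Lpl, Angptl4 and Plin2. All 10 were found among the 25094 genes listed for RAW cells and among the 16478 listed for bone marrow-derived macrophages (BMDMs), and all 10 passed the filter on low values that left 12905 RAW genes for testing. The study asked how the corepressor subunit GPS2 and the histone demethylase KDM1A shape the IL4 response of macrophages, and the series holds 203 samples. The values here come from 16 RNA-seq libraries of RAW cells, in 4 groups of 4. The BMDM libraries, of WT and Gps2 KO cells, are represented only by the authors' own comparisons and were not analysed here.

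RAW264.7 is a mouse macrophage-like cell line. All 4 groups carried a lentiviral short hairpin RNA and had been selected with puromycin as stable lines. The groups named shGFP express a control hairpin against GFP, and the groups named shKDM1A express a single hairpin clone against Kdm1a, so an effect of that hairpin outside Kdm1a cannot be told apart from an effect of KDM1A loss. Each line was left untreated or received 20 ng/ml of IL4 for 6 h, giving the groups shGFP, shGFP_IL4, shKDM1A and shKDM1A_IL4. The study's methods speak of biological replicates in general, but neither they nor the labels say that the 4 libraries of a group came from separate cultures, and p-values measure the spread between these libraries.

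PPARs are nuclear receptors that sense fatty acids and their derivatives, bind DNA as heterodimers with an RXR, and switch between corepressor and coactivator complexes when a ligand binds. In macrophages PPARγ and PPARδ are known for their part in alternative activation by IL4, which works first through the transcription factor STAT6. Their target genes cover the path of a fatty acid into and within the cell: release from lipoproteins (Lpl, held in check by Angptl4), uptake (Cd36), transport in the cytosol (Fabp4 and Fabp5) and storage in lipid droplets (Plin2).

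The promoters of the members that IL4 changed in both lines are shown because they are where STAT6 and PPAR:RXR sites close to the gene would lie. RefSeq promoters on GRCm38.p6, each running from 250 bases before to 50 bases after a start site, were matched for 6 of the 10 genes, with 10 promoters in all. There was no entry for Fabp4, Fabp5, Lpl or Angptl4. Capitals mark a nuclear receptor half-site (AGGTCA) or a STAT6 site (TTCNNNNGAA), searched on both strands. Cd36 is read from the minus strand at chr5:17835847-17836146, Plin2 from the minus strand at chr4:86670010-86670309 and Ppard from the plus strand at chr17:28232504-28232803.
Cd36: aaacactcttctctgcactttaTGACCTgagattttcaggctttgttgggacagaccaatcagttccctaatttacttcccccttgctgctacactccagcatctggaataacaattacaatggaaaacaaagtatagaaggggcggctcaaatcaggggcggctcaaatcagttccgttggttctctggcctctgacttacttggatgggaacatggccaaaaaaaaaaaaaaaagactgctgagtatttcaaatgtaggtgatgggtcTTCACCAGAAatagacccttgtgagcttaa
Plin2: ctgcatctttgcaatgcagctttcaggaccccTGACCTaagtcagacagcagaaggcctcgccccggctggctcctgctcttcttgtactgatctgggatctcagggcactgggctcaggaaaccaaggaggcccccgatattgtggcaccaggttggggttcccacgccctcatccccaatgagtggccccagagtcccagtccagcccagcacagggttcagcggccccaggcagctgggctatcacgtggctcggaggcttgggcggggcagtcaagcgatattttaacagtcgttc
Ppard: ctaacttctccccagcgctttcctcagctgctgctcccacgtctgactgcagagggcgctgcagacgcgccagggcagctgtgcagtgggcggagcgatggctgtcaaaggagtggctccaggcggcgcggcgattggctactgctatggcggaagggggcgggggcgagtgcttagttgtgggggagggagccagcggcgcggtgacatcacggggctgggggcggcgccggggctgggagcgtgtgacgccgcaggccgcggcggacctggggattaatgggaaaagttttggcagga
The Cd36 promoter shown held 1 STAT6 site match, 21 bases after the start site, and 1 half-site. The Plin2 promoter shown held 1 half-site and the Ppard promoter held neither. Whether these start sites are those of the transcripts counted was not checked. A STAT6 site match was present in 6.98% of 32544 promoters of this length and a half-site in 16.2%. A variant STAT site with a shorter spacer (TTCNNNGAA), present in 8.33% of promoters, was found in none of the 10 promoters of members. Nor was the exact consensus of the direct repeat that PPAR:RXR binds (AGGTCANAGGTCA, which contains the half-site), present in 0.0399%. So rare a string would nearly always be missing from 10 promoters, so its absence says nothing about PPAR:RXR sites that depart from it. A match describes letters in this window only and is no evidence of binding, and the half-site also matched 2 Pparg promoters and 1 Rxra promoter.

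Libraries held between 17554721 and 27782568 tags (median 21444949), and 2 libraries of the same group differed by a median of 0.04 to 0.06 on the log2 scale. Kdm1a itself, the targeted gene (mm9 4:136106448-136158638), checked the labels: its mean deposited log2 value was 11.18 in shGFP, 11.10 in shGFP_IL4, 10.30 in shKDM1A and 10.32 in shKDM1A_IL4. Kdm1a was lower in shKDM1A cells by 0.88 without IL4 and by 0.79 with IL4 on the log2 scale (standard error 0.03 each, limma adjusted p = 5.62e-13 and 2.2e-12), leaving 0.542 and 0.58 of the shGFP level. The cells' identity was checked with marker lists. All 8 macrophage markers were measured, the sum of their levels lying between 17.31 and 17.86 on the log2 scale in every library. No T cell or B cell marker passed the filter. Of 6 fibroblast markers 1 passed, Pdgfrb at 2.43 to 2.52 over all libraries, Col1a1 and Pdgfra lay near the floor, and Col1a2, Col3a1 and Dcn, like the adipocyte genes Lep and Cidec, were listed at 0 in every library.

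Levels of the 10 genes spanned a wide range in untreated shGFP cells, given here per kilobase of transcript on the log2 scale so that genes can be compared. Lpl stood at 13.05, above 98.7% of the genes tested. Fabp5 at 10.51, Cd36 at 10.06, Plin2 at 9.91 and Rxrb at 9.46 formed the next tier. Ppard at 7.47, Angptl4 at 6.62 and Rxra at 6.27 lay in the middle of the range, and Fabp4 at 4.66 and Pparg at 4.58 were at the bottom, each above about 20.0% and 19.6% of the genes tested. For each pair of neighbours the 4 shGFP libraries did not overlap, down to the 0.08 that separated Fabp4 from Pparg. That 0.08 depends on the listed exonic lengths, 675 bases for Fabp4 and 2117 for Pparg. In the deposited log2 values of shGFP the order was reversed, Pparg at 5.66 and Fabp4 at 4.10. Low genes hardly vary between libraries on this scale, so the lack of overlap cannot decide which of these genes is higher. The remaining family members, Ppara and Rxrg, did not pass the filter, with deposited log2 values near the floor of the table (means of -1.90 and -2.27 in shGFP).

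**Figure D1:**
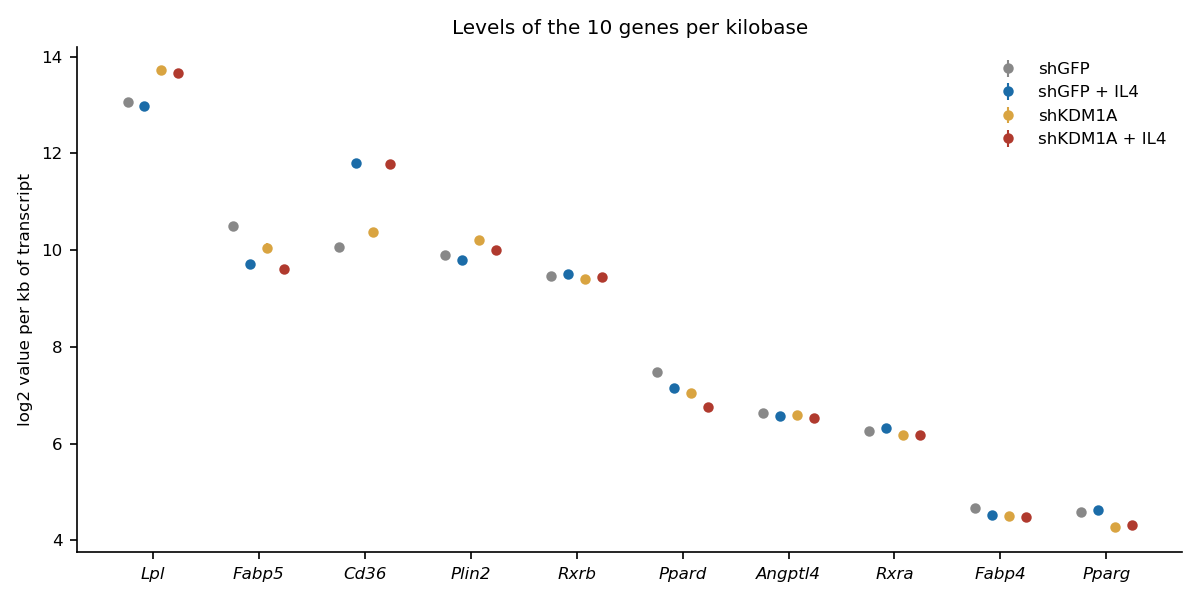
Mean level of each gene per kilobase of transcript on the log2 scale (vertical axis) in the 4 groups (colours), ordered by the level in shGFP cells, with bars of 1 SD over 4 libraries. Lpl at 13.05 and Pparg at 4.58 in shGFP cells mark the ends of the range.

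IL4 changed 4 lipid genes and 1 receptor gene in shGFP cells. There, 5 of the 10 genes passed an adjusted p under 0.05, Cd36 rising and Ppard, Fabp4, Fabp5 and Plin2 falling, against 26.9% of all genes tested (13.1% higher and 13.7% lower). Limma tests, each two-sided, with Benjamini-Hochberg adjustment over the 12905 genes, were used throughout. In shKDM1A cells IL4 changed 4 of the 10, Cd36 again upward and Ppard, Fabp5 and Plin2 downward, against 27.1% of all genes (13.6% higher and 13.5% lower). With a limit of 0.5 on the absolute log2 difference, Cd36 and Fabp5 were left in shGFP cells (background 1.35%) and Cd36 in shKDM1A cells (background 1.09%). Libraries did not overlap between treated and untreated cells for 5 genes in shGFP (background 28.3%) and for 6 in shKDM1A (background 25.7%).

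KDM1A knockdown lowered both PPARs with and without IL4, and changed 5 of the 6 lipid genes without IL4 and 2 with IL4. Without IL4, 7 of the 10 differed between shKDM1A and shGFP cells, against 38.2% of all genes tested (19.7% higher and 18.4% lower): Cd36, Plin2 and Lpl were higher and Pparg, Ppard, Fabp4 and Fabp5 lower. With IL4, 5 differed, against 40.7% of all genes (20.9% higher and 19.8% lower), Plin2 and Lpl being higher and Pparg, Ppard and Rxra lower. The count with IL4 depended on the scaling, as set out with the alternatives. Lpl alone among the 10 passed the limit of 0.5 in either comparison (backgrounds 2.61% and 2.47%). Groups did not overlap for 7 members without IL4 (background 37.4%) and for 4 with IL4 (background 36.4%). The median absolute log2 difference over the 10 genes was 0.31 without IL4 and 0.12 with IL4, beside 0.06 and 0.07 over all genes tested. For the IL4 effect this median was 0.09 in shGFP and 0.06 in shKDM1A, beside 0.05 over all genes in each. For the difference of responses it was 0.04, below the 0.05 over all genes. The IL4 response itself differed between the lines for Cd36, Fabp4 and Fabp5, 3 of 10 against 6.13% of all genes (3.56% with a higher and 2.57% with a lower value in shKDM1A), and 0 of 10 beyond the limit of 0.5 (background 0.132%). The comparisons share libraries, so an unusual library moves several of them, and each gene's values are therefore given side by side. Because whole cultures were measured, fewer expressing cells and less RNA per cell cannot be told apart.

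**Figure D2:**
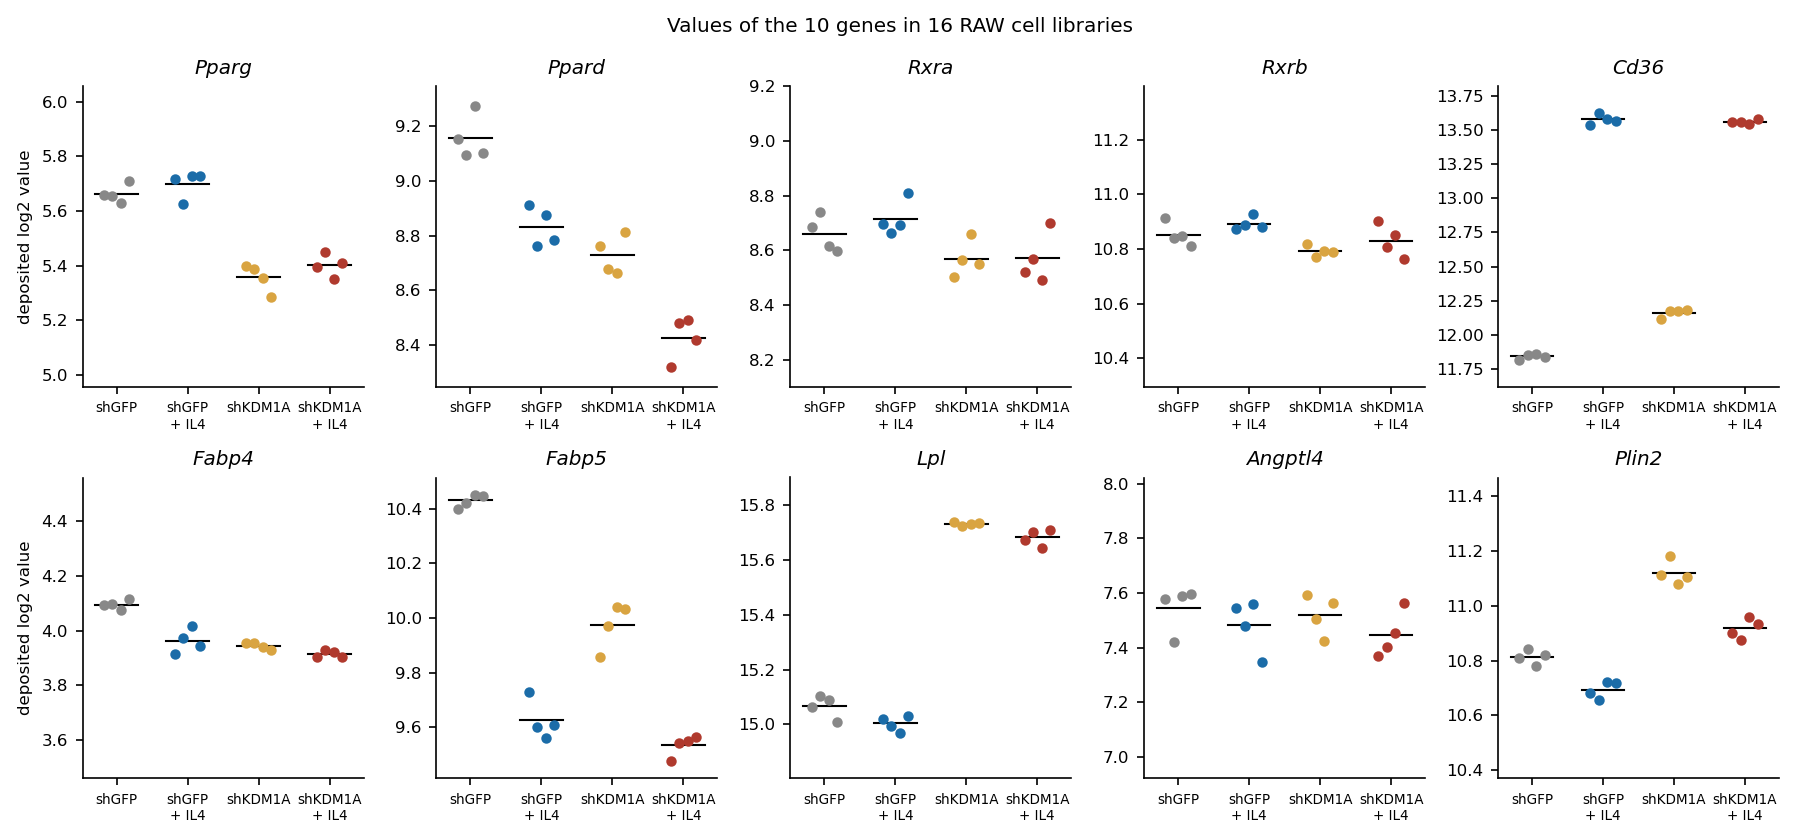
Deposited log2 values (vertical axes) of the 10 genes in 16 libraries, 1 panel per gene, with points for libraries and a line for the mean of 4. Every axis spans 1.1 log2 units, except that of Cd36, which spans 2.2. Cd36 rose with IL4 in both lines, Ppard stepped down with IL4 and with knockdown, and Lpl separated by line.

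Pparg encodes PPARγ, the receptor for which rosiglitazone is a ligand, and lies on mm9 6:115310969-115440419. Its deposited log2 values were 5.66, 5.65, 5.63 and 5.71 in shGFP and 5.72, 5.62, 5.73 and 5.73 in shGFP_IL4. They were 5.40, 5.39, 5.35 and 5.29 in shKDM1A and 5.39, 5.45, 5.35 and 5.41 in shKDM1A_IL4. Every shKDM1A library lay below every shGFP library, with and without IL4, while treated and untreated libraries overlapped in both lines. The log2 difference between the lines was -0.31 (standard error 0.03, limma adjusted p = 5.76e-07) without IL4 and -0.30 (standard error 0.03, adjusted p = 8.46e-07) with IL4. The IL4 effect was 0.04 in shGFP (95% interval -0.03 to 0.10, adjusted p = 0.448) and 0.04 in shKDM1A (-0.02 to 0.11, adjusted p = 0.328). These intervals cover a rise of up to 0.11 at 6 h on the deposited scale, which sets no limit on the fold change of read counts.

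Ppard encodes PPARδ, the PPAR that is expressed in most tissues, and lies on mm9 17:28369699-28438414. Its log2 values were 9.15, 9.10, 9.27 and 9.10 in shGFP, 8.91, 8.76, 8.88 and 8.79 in shGFP_IL4, 8.76, 8.68, 8.66 and 8.81 in shKDM1A, and 8.32, 8.48, 8.49 and 8.42 in shKDM1A_IL4. All treated libraries were below all untreated libraries of the same line, and all shKDM1A libraries below all shGFP libraries at the same treatment. With IL4 Ppard had a log2 difference of -0.32 in shGFP (standard error 0.05, limma adjusted p = 0.000101) and -0.30 in shKDM1A (standard error 0.05, adjusted p = 0.000197). With knockdown the difference was -0.43 without IL4 (adjusted p = 3.04e-06) and -0.41 with IL4 (adjusted p = 5.28e-06). The difference between the responses was 0.02 (95% interval -0.13 to 0.17). The level was lowest in shKDM1A_IL4, at 8.43 ± 0.08 against 9.16 ± 0.08 in shGFP (SD, n = 4).

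Rxra and Rxrb encode the partners with which PPARs bind DNA. Rxra, on mm9 2:27532721-27618839, had log2 values from 8.60 to 8.74 in shGFP, 8.66 to 8.81 in shGFP_IL4, 8.50 to 8.66 in shKDM1A and 8.49 to 8.70 in shKDM1A_IL4. Rxrb, on mm9 17:34168757-34175348, had values from 10.81 to 10.91, 10.87 to 10.93, 10.77 to 10.82 and 10.76 to 10.90 in the same order. For both genes the groups overlapped in every comparison. Rxra passed the test once, at -0.15 in shKDM1A_IL4 against shGFP_IL4 (standard error 0.05, limma adjusted p = 0.022), a call that was lost without shGFP_IL4 replicate 4 (-0.11, adjusted p = 0.078), without shKDM1A_IL4 replicate 1 (-0.13, adjusted p = 0.063) and without shKDM1A_IL4 replicate 3 (-0.12, adjusted p = 0.074). Rxrb did not pass in any of the 5 comparisons, its largest being -0.06 with IL4 (95% interval -0.12 to -0.0022, adjusted p = 0.0922).

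Cd36, a scavenger receptor that takes up oxidised lipoproteins and long-chain fatty acids, lies on mm9 5:17287508-17355610. It had log2 values of 11.82, 11.86, 11.86 and 11.84 in shGFP and 13.54, 13.62, 13.58 and 13.56 in shGFP_IL4. In the knockdown line the values were 12.11, 12.18, 12.17 and 12.18 without IL4 and 13.56, 13.56, 13.55 and 13.58 with IL4. Untreated libraries of the 2 lines did not overlap, the knockdown line being higher, while the treated libraries overlapped fully. IL4 raised Cd36 3.33-fold in shGFP cells (log2 difference 1.73, standard error 0.02, limma adjusted p = 8.67e-18) and 2.64-fold in shKDM1A cells (1.40, standard error 0.02, adjusted p = 2.44e-16). It ranked 4 from the top among the 12905 genes in the first comparison and 5 in the second. Knockdown raised the untreated level by 0.32 (standard error 0.02, adjusted p = 4.63e-09), and with IL4 the difference was -0.02 (95% interval -0.06 to 0.03, adjusted p = 0.559). The rise was smaller in shKDM1A cells, the difference of responses being -0.33 (standard error 0.03, adjusted p = 8.41e-06).

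Fabp5 and Fabp4 encode cytosolic fatty acid-binding proteins, the first also known as the epidermal form and the second as the adipocyte form, aP2. Fabp5, on mm9 3:10012585-10016610, had log2 values of 10.40, 10.42, 10.45 and 10.45 in shGFP, 9.73, 9.60, 9.56 and 9.61 in shGFP_IL4, 9.86, 9.97, 10.04 and 10.03 in shKDM1A, and 9.48, 9.54, 9.55 and 9.57 in shKDM1A_IL4. The shGFP libraries were the highest, the shKDM1A libraries stood between, and the treated groups were lowest and overlapped slightly. IL4 lowered Fabp5 to 0.573 of its level in shGFP (log2 difference -0.80, standard error 0.04, limma adjusted p = 1.71e-10) and to 0.737 in shKDM1A (-0.44, standard error 0.04, adjusted p = 3.31e-07). It ranked 16 from the bottom of all genes tested in shGFP cells and 99 in shKDM1A cells. With knockdown the untreated level changed by -0.46 (adjusted p = 1.16e-07), and with IL4 the difference was -0.09 (95% interval -0.18 to -0.01, adjusted p = 0.0767). The fall was smaller in shKDM1A cells, the difference of responses being 0.36 (standard error 0.06, adjusted p = 0.00105). RefSeq lists a pseudogene of Fabp5, and how reads shared with it were counted is not given in the sources used here.

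Fabp4, on mm9 3:10204343-10208616, is the classic PPARγ target of adipocytes and was, with Pparg, the lowest of the 10 genes. Its log2 values were 4.09, 4.10, 4.08 and 4.12 in shGFP, 3.91, 3.97, 4.02 and 3.94 in shGFP_IL4, 3.95, 3.95, 3.94 and 3.93 in shKDM1A, and 3.91, 3.93, 3.92 and 3.91 in shKDM1A_IL4. The 4 shGFP libraries were above the other 12. The IL4 difference of Fabp4 was -0.13 in shGFP (standard error 0.02, limma adjusted p = 9.49e-05) and -0.03 in shKDM1A (95% interval -0.07 to 0.01, adjusted p = 0.321). The knockdown difference was -0.15 without IL4 (adjusted p = 1.72e-05) and -0.05 with IL4 (adjusted p = 0.08). The difference of responses, 0.10 (standard error 0.03, adjusted p = 0.0419), passed narrowly and was lost in most fits without 1 library, as set out with the alternatives.

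Lpl encodes lipoprotein lipase, the enzyme that releases fatty acids from circulating lipoproteins, and lies on mm9 8:71404454-71430831. Its log2 values were 15.06, 15.10, 15.09 and 15.01 in shGFP, 15.02, 14.99, 14.97 and 15.03 in shGFP_IL4, 15.74, 15.72, 15.73 and 15.74 in shKDM1A, and 15.67, 15.70, 15.64 and 15.71 in shKDM1A_IL4. Every library of the knockdown line exceeded every library of the control line. The level was 1.59-fold higher in shKDM1A without IL4 (log2 difference 0.67, standard error 0.02, limma adjusted p = 1.34e-12) and 1.60-fold higher with IL4 (0.68, standard error 0.02, adjusted p = 1.08e-12). It was the largest knockdown difference of the 10 genes, ranking 119 from the top of all genes without IL4 and 109 with IL4. IL4 differences were -0.06 in shGFP (95% interval -0.11 to -0.01, adjusted p = 0.0551) and -0.05 in shKDM1A (-0.10 to 0.0003, adjusted p = 0.139), and the responses differed by 0.01 (-0.06 to 0.08).

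Angptl4, on mm9 17:33911845-33918520, encodes a secreted inhibitor of lipoprotein lipase and is a known target of PPARδ in macrophages. Its log2 values lay between 7.42 and 7.60 in shGFP, 7.35 and 7.56 in shGFP_IL4, 7.43 and 7.59 in shKDM1A, and 7.37 and 7.56 in shKDM1A_IL4. All groups overlapped, and none of the 5 comparisons passed, with differences from -0.07 to -0.01 and standard errors of 0.05 to 0.08. Its standard errors were the largest of the 10 genes, and the 95% interval for IL4 in shGFP ran from -0.18 to 0.05.

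Plin2, which coats lipid droplets and rises with lipid loading of macrophages, lies on mm9 4:86302469-86315963. Its log2 values were 10.81, 10.84, 10.78 and 10.82 in shGFP, 10.68, 10.66, 10.72 and 10.72 in shGFP_IL4, 11.11, 11.18, 11.08 and 11.11 in shKDM1A, and 10.90, 10.88, 10.96 and 10.93 in shKDM1A_IL4. No 2 of the 4 groups overlapped. The IL4 difference of Plin2 was -0.12 in shGFP (standard error 0.03, limma adjusted p = 0.00224) and -0.20 in shKDM1A (adjusted p = 1.47e-05), and knockdown raised it by 0.31 without IL4 (adjusted p = 6.46e-08) and 0.22 with IL4 (adjusted p = 2.94e-06). The responses differed by -0.08 (95% interval -0.16 to -0.01, adjusted p = 0.179).

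**Figure D3:**
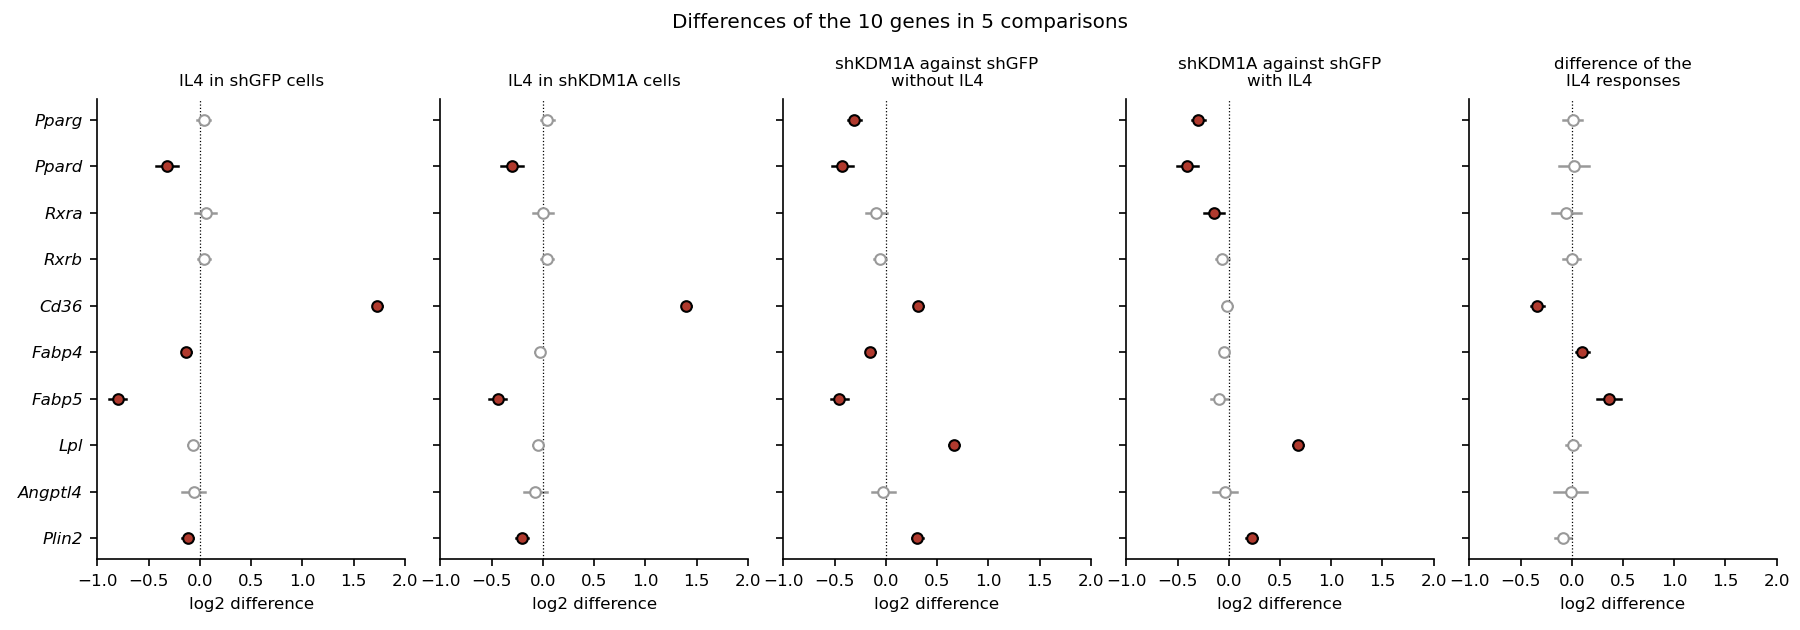
Log2 differences (horizontal axes) of the 10 genes in the 5 comparisons with 95% intervals, filled where the limma adjusted p was under 0.05. Cd36 stands apart to the right under IL4 at 1.73 and 1.40, Fabp5 to the left at -0.80 and -0.44, and Lpl to the right under knockdown at 0.67 and 0.68.

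Genes whose pattern was most like that of a member were taken by the root mean square difference of log2 values over the 16 libraries after centring each gene, which is a description. For Pparg they included Laptm4a (0.05) and As3mt (0.05), beside a variation of Pparg itself of 0.16. Nearest to Cd36 were Id2 (0.22), Slc37a2 (0.22) and Itgav (0.24), beside 0.79 for Cd36 itself. Fabp5 was followed most closely by Chst10 (0.09), Tnf (0.11) and Cybb (0.12), Lpl by Map2k1, Dtx3l and Parp12 (0.04 each), and Ppard by Cdk18 (0.07), H2-M3 (0.07) and Tlr7 (0.08).

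The rest of the pathway was followed with 4 lists, whose counts stand beside the shares of all genes tested: 13.1% higher and 13.7% lower for IL4 in shGFP, 13.6% and 13.5% for IL4 in shKDM1A, 19.7% and 18.4% for knockdown without IL4, and 20.9% and 19.8% with IL4. Of the 10 nuclear receptor coregulators, the proteins that PPARs recruit to silence or activate genes, 9 were tested. IL4 raised 2 in shGFP, among them Nrip1 (0.19), and lowered 1 in shKDM1A, the coactivator gene Ppargc1b (-0.20). The 2 raised were 1 in several alternatives, as set out with them. Knockdown raised 1, the coactivator gene Ncoa3 (0.22), and lowered 2, Nrip1 (-0.37) and Ppargc1b (-0.22), without IL4. With IL4 it lowered 6 of the 9 (background 19.8%) and raised none, Nrip1 at -0.66 and Ppargc1b at -0.31, with a list median of -0.22 beside -0.0024 over all genes tested.

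Of 15 fatty acid oxidation genes under PPAR control, 12 were tested. IL4 raised 4 (background 13.1%) and lowered none in shGFP, the largest being Cpt1a, the gate of fatty acids into mitochondria, at 0.63 (standard error 0.02). In shKDM1A it raised 5 (background 13.6%) and lowered none, Cpt1a by 0.36, and Cpt1a was the 1 gene of the list whose response differed (-0.27, limma adjusted p = 9.85e-05). Knockdown without IL4 raised 2 and lowered 4 (38.2% of all genes in either direction), Cpt1a rising by 0.35 and Hadha falling at -0.15, and with IL4 it raised 5 and lowered 3 (40.7%). The 4 lowered were 2 without shGFP replicate 3 or 4 or shKDM1A replicate 1 or 2, and groups that did not overlap numbered 3 higher and 2 lower without IL4 (37.4% of all genes), so no direction of the list was shown.

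Of 17 other genes of lipid uptake, storage and lipolysis, 13 were tested. IL4 raised 4 (background 13.1%) and lowered none in shGFP, among them the oxidised lipoprotein receptor Olr1 (0.43) and the lysosomal lipase Lipa (0.20), and in shKDM1A it raised 4 and lowered 2 (27.1% of all genes in either direction). Knockdown raised 6 (background 19.7%) and lowered none without IL4 and raised 6 (background 20.9%) and lowered 1 with IL4. The largest was Dgat2, which makes triglyceride for droplets, at 1.25 without IL4 and 0.91 with IL4 (standard error 0.04 each, limma adjusted p = 1.83e-13 and 8.31e-12), followed without IL4 by the droplet lipase Pnpla2 (0.28). Among 12 IL4 response genes, 10 were tested, and IL4 raised 9 in shGFP (background 13.1%) and 8 in shKDM1A (background 13.6%) and lowered none. Ptgs1 rose by 1.77 in shGFP and 1.08 in shKDM1A, so Cd36 and Ptgs1 had increases of like size in shGFP cells. Chil3 and Retnla were listed at 0 in every library. Of the 10, knockdown raised 1 and lowered 3 without IL4 (background 18.4% lower), and raised 1 and lowered 6 with IL4 (background 19.8% lower).

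**Figure D4:**
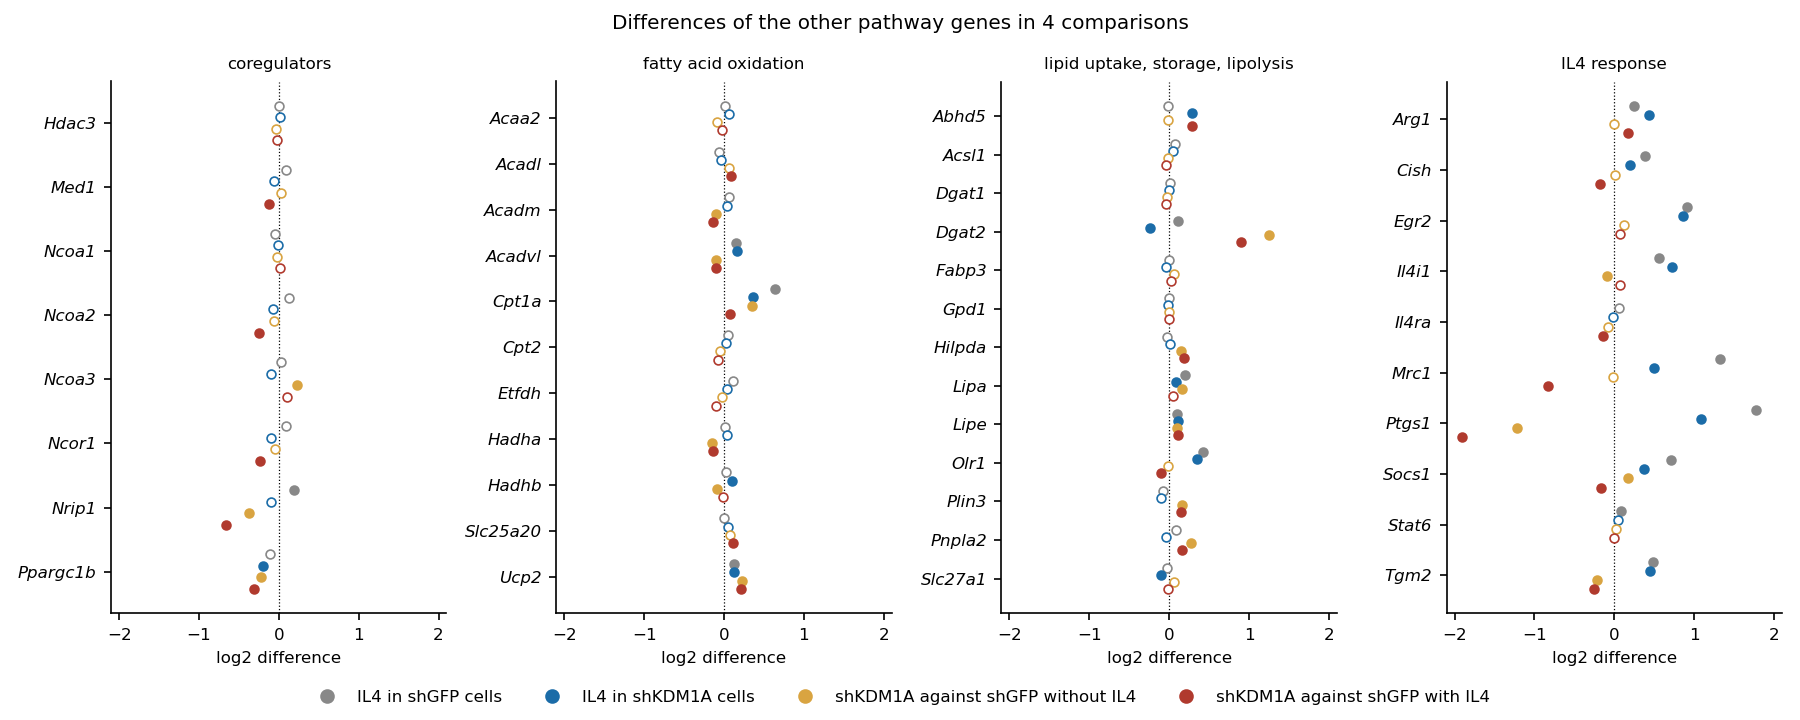
Log2 differences (horizontal axes) of tested genes from 4 lists, all but 2 of those tested, in 4 comparisons (colours), filled where the limma adjusted p was under 0.05. Dgat2 at 1.25 and 0.91 under knockdown and Cpt1a at 0.63 under IL4 in shGFP cells lie farthest from 0 among the lipid genes.

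RAW cells can form osteoclasts, and 7 of 8 osteoclast markers were tested (Calcr was near the floor). Their summed level on the log2 scale ranged from 11.71 to 11.74 in shGFP, 12.09 to 12.15 in shGFP_IL4, 12.08 to 12.13 in shKDM1A and 12.29 to 12.43 in shKDM1A_IL4. This sum was carried by Nfatc1, which rose by 0.64 with IL4 in shGFP and by 0.43 with knockdown without IL4, and the list did not move one way. IL4 raised 3 and lowered 2 of the 7 in shGFP (26.9% of all genes in either direction) and raised 3 and lowered 3 in shKDM1A (27.1%), Dcstamp falling at -0.54 in shGFP. Knockdown raised 3 and lowered 1 without IL4 (38.2%) and raised 4 and lowered 1 with IL4 (40.7%), Atp6v0d2 and Ctsk rising by 0.84 and 0.44 and Ocstamp falling at -0.17 without IL4. The part of these genes in the results for the 10 members was not tested. The summed level of the 8 macrophage markers also moved, ranging from 17.63 to 17.68 in shGFP and 17.31 to 17.33 in shGFP_IL4, and from 17.83 to 17.86 in shKDM1A and 17.74 to 17.83 in shKDM1A_IL4. Lyz2 was the largest part of this sum, at a mean of 16.90 in shGFP and 16.37 in shGFP_IL4. With IL4 in shGFP 2 of the 8 were higher, Adgre1 by 1.24 and Csf1r by 0.26, and 3 were lower, Cd14 at -0.93, Lyz2 at -0.53 and Fcgr1 at -0.12 (26.9% of all genes in either direction), and in shKDM1A 3 were higher and 3 lower (27.1%). Knockdown changed all 8, with 5 higher and 3 lower without IL4 (38.2%) and 6 higher and 2 lower with IL4 (40.7%), Lyz2 by 0.26 and 0.68. The part of these shifts in the results for the 10 members was likewise not tested. Of the adipocyte markers only Lipe, which macrophages also express, was tested, at 9.44 to 9.75 over all libraries. Lipe was called higher with IL4, by 0.10 in shGFP and 0.11 in shKDM1A, and with knockdown, by 0.10 without IL4 and 0.11 with IL4.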

How the data were processed

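Per the file headers, the authors counted RNA-seq reads on mm9 gene exons with HOMER on both strands, merged transcripts into genes, and used DESeq2 for comparisons. Per the study's methods, alignment was by HISAT2 and Bowtie2 to the same build. Versions are not given in the sources used here. The deposited RAW table holds a log2 value per gene and library, on a scale in which the lowest genes hardly vary between libraries, made by a transformation the sources do not name, and no test for counts was applied to it. Differences and folds are on this scale and may be smaller than those of read counts, most of all for low genes such as Pparg and Fabp4. Per the file headers, tag totals range from 17554721 to 27782568. The authors' columns of test results (fold change, p-value) in both tables were not used, and the BMDM table holds nothing else. Levels per kilobase subtract the log2 of the listed exonic length in kilobases.

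Groups were taken from the labels. Genes reaching 1 in 4 or more libraries (12905 of 25094) were tested with R 4.3.3 and limma 3.58.1, with 4 group means over all 16 libraries, 5 contrasts, and Benjamini-Hochberg adjustment per contrast at 0.05. Counting on both strands cannot separate overlapping genes, but no exon of the 10 genes overlapped an exon of another gene in GENCODE annotation of this build. The step was checked on simulated data. Members and gene lists were chosen with earlier results of these data known. Genes named besides the members are, from each list, up to 2 called genes per direction and comparison with the largest difference, the 3 nearest in pattern, and others chosen after their values were seen. Some genes that this rule names are not reported here. Alternatives covered scaling, filters, the prior variance, a replicate block, the groups in the model and leaving out each library. A limit of 1 on the log2 difference was added after seeing the data.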

Additional observations from a re-analysis of the deposited data

Results flagged for a closer look

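In 3 of the 40 groups of 4 libraries examined (10 genes in 4 groups), the lowest library lay far from the other 3, where chance alone gives about 1 in 20 groups. They were Pparg in shGFP_IL4 (replicate 2 at 5.62, the others at 5.72 to 5.73), Cd36 in shKDM1A (replicate 1 at 12.11, the others at 12.17 to 12.18) and Angptl4 in shGFP (replicate 2 at 7.42, the others at 7.58 to 7.60). The 3 libraries belong to different groups, and leaving out each of the 16 libraries in turn changed no call of these 3 genes.

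For 3 genes the IL4 response differed between shKDM1A and shGFP cells in the test of the difference itself. The log2 difference of responses was -0.33 for Cd36 (limma adjusted p = 8.41e-06), where both lines rose, 0.36 for Fabp5 (adjusted p = 0.00105), where both lines fell, and 0.10 for Fabp4 (adjusted p = 0.0419), where shGFP cells fell. For Cd36 and Fabp5 the untreated levels of the lines differed by 0.32 and -0.46 and the treated levels by -0.02 and -0.09.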

How the results depend on the processing

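Cd36, Ppard, Fabp5 and Plin2 kept their IL4 calls in both lines, and Pparg, Ppard, Plin2 and Lpl their knockdown calls with and without IL4, in each of 23 alternatives. With a limit of 1 on the absolute log2 difference, chosen after seeing the data, the members called were 1 (Cd36), 1 (Cd36), 0 and 0 for IL4 in shGFP, IL4 in shKDM1A, and knockdown without and with IL4, and all genes called were 26, 21, 52 and 56. Quantile normalization gave 8 members for knockdown with IL4, adding Rxrb, Cd36 and Fabp4 with differences of -0.08, -0.06 and -0.05. Without this scaling 40.7% of all genes were called for this comparison, and the share with it is not given here. The 8 were therefore not read as a result about the members, and the cause of the rise was not tested. Without a filter, Rxra there was lost (adjusted p = 0.0741) and the difference of responses called 431 genes against 791, with more genes tested.

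Fabp4's difference of responses was lost without a filter (limma adjusted p = 0.0521) and without any single library (0.0543 to 0.0852) except shGFP replicate 3, shGFP_IL4 replicate 3 and shKDM1A_IL4 replicate 4. Lpl became called for IL4 in shGFP under a trended and robust prior variance (limma adjusted p = 0.0147) and without shGFP replicate 4 (0.0126), shGFP_IL4 replicate 4 (0.0467) or shKDM1A_IL4 replicate 3 (0.0475), while under quantile normalization its difference was 0.02 (adjusted p = 0.835). For knockdown with IL4, Rxrb became called without shKDM1A_IL4 replicate 1 (0.0207), Fabp4 without shGFP_IL4 replicate 1 (0.0217), and Fabp5 without shGFP_IL4 replicate 3 (0.0467) or shKDM1A replicate 1 (0.0331). The coregulators raised by IL4 in shGFP were 1 in place of 2 without a filter, under the trended and robust prior, and without any shGFP library but replicate 2 or any shGFP_IL4 library. The fatty acid oxidation genes lowered by knockdown without IL4 were 2 in place of 4 without a filter and without shGFP replicate 3 or 4 or shKDM1A replicate 1 or 2. Leaving out 1 library each gave 5 to 6 members and 2975 to 3619 genes for IL4 in shGFP, 4 and 3018 to 3539 for IL4 in shKDM1A, 7 and 4419 to 5048 for knockdown without IL4, 4 to 6 and 4697 to 5293 with IL4, and 2 to 3 and 530 to 1104 for the difference of responses.

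With the replicate number as a block, Fabp4's difference of responses had an adjusted p of 0.0617, and no other member's call changed. Same-numbered libraries deviated together with r from -0.34 to 0.27, over 0.1 in 3 of 24 pairs, and 6 of 16 libraries correlated best with their own number, so the numbers were not taken to pair the libraries.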
